A study of Mus musculus with 8 samples.

Results

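The insulin-like growth factor (IGF) genes of inguinal white fat were followed across its cell types. The set held 9 genes of the 32285 in the tables and was taken by symbol: the ligand genes Igf1 and Igf2, the receptor gene Igf1r, and the binding protein genes Igfbp2, Igfbp3, Igfbp4, Igfbp5, Igfbp6 and Igfbp7. The stromal vascular fraction of mouse inguinal fat, the cells that remain when adipocytes float off the digested tissue, was profiled by droplet single-cell RNA sequencing (10x Genomics, 3′ v3 chemistry). There were 4 libraries from mice fed ad libitum (Ad-Lib, replicates 1, 3, 5 and 7) and 4 from TAN mice, which by the study's methods had food only in 2 windows of 2 h during the dark phase (replicates 2, 4, 6 and 8). All mice were C57BL/6 by the labels (C57BL/6J by the study), and by the study's methods male and on regular chow. Age is uncertain: the labels say 8 weeks, but by the study's text the mice were older and had been on their regimens for months. The study's text treats the libraries as animal replicates, while no label says that they came from separate animals or how many animals went into a library. The p-values measure the spread between these libraries, which may be technical if they did not.

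IGF-1 and IGF-2 are secreted growth factors related to insulin, and they signal through the receptor tyrosine kinase that Igf1r encodes. IGF-binding proteins hold the ligands in blood and in the extracellular matrix, and can either keep them from the receptor or deliver them to it, while proteases such as PAPP-A cut binding proteins and free the ligand. In fat, IGF-1 is known as a growth and differentiation signal for adipocyte progenitor cells (APCs).

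A unique molecular identifier (UMI) marks 1 captured RNA molecule, and 36370 of 44427 barcodes passed the limits on UMIs, genes and mitochondrial share. Library totals ran from 25320800 to 37140950 UMIs. Clusters were named by their marker genes, and each name stands for cells that are like the named type by those markers. APCs fell into Dpp4+ cells (cluster led by Ptgs2, Pi16 and Dact2, 2064 Ad-Lib and 1279 TAN cells), Icam1+ cells (led by Fbln7, Cxcl14 and Col15a1, 1998 and 1172) and F3+ cells (led by Cpxm2, Agt and Gdf10, 1319 and 727). All 10 general APC markers were found in each subset, with a summed level of 7764 to 22997 CPM (UMIs of a gene scaled to 1000000 UMIs of the class in a library) against 15.7 to 125 CPM in T cells. T cells numbered 18 to 259 per Ad-Lib and 149 to 1684 per TAN library, and B cell markers summed to between 172 and 31953 CPM in the Ad-Lib T cells, so values in T cells carry the least weight. The median mitochondrial share of a library was 1.79% to 2.54% in Ad-Lib and 2.80% to 4.24% in TAN, without overlap, and its part in the results was not tested. B cells, which should lack these genes, gave the background from free RNA.

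The 9 genes lie on 6 chromosomes of GRCm38. Igfbp2 (chr1:72824503-72852474, + strand) and Igfbp5 (chr1:72857932-72874884, - strand) are neighbours with 5457 bases between them, and Igfbp3 (chr11:7206086-7213923, - strand) lies 3539 bases from Igfbp1. Igfbp4 lies at chr11:99041244-99054392 (+), Igfbp6 at chr15:102144362-102149511 (+) and Igfbp7 at chr5:77349240-77408041 (-), where Polr2b and Gm34648 overlap it on the other strand. Igf1r lies at chr7:67952827-68233668 (+) with no overlapping gene. Igf1 (chr10:87858265-87937042, +) and Igf2 (chr7:142650766-142666816, -) each overlap an antisense transcript (Igf1os and Igf2os), and Igf2 also overlaps Gm49394 and Mir483 on its own strand. How reads on the other strand were counted is not given in the sources used here, so Igf1, Igf2 and Igfbp7 counts are uncertain to that extent.

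The 100 bases before the outermost annotated start are shown for Igfbp5 and Igfbp3, the 2 members whose level was called higher in TAN, and for Igfbp4, a binding protein gene with no call. The sequences are from RefSeq (GRCm38.p6), 5′ to 3′ on the strand of the gene, and capitals mark a TATA motif. The regions are chr1:72874885-72874984 (-), chr11:7213924-7214023 (-) and chr11:99041144-99041243 (+).
Igfbp5: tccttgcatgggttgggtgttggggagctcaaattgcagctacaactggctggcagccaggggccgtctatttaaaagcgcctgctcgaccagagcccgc
Igfbp3: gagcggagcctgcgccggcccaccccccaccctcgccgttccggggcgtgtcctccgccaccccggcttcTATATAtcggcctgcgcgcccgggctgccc
Igfbp4: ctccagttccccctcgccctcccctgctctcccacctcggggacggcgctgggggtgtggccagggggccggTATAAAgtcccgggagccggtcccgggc
The share of G and C was 59% before Igfbp5, 77% before Igfbp3 and 75% before Igfbp4. All 9 members had entries in the promoter table (13 entries), and 5 motifs were searched on both strands of the 250 bases before each start, counting back from -1 at the base before it. The TATA motif TATAAA stood at position -28 of Igfbp4 and, on the other strand, at -148 of Igfbp6, and 12.4% of all 32851 promoters held it. A variant of it that can overlap it, TATATA, stood at -30 of Igfbp3, against 5.25% of promoters. The motif CCAAT was found before Igf1, Igf2 and Igfbp6, and 33.8% of promoters held it. The GC box GGGCGG was found before Igf2, Igf1r, Igfbp2 and Igfbp7, against 32.7% of promoters. The E-box CACGTG was found before Igfbp2, against 6.02% of promoters. Igfbp5 matched none of the 5 in this window, which says only that these letters are not there.

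The members were spread over different cell types, and levels are compared here within a gene, as a description without a test. Among the classes compared, Igf1 was highest in F3+ APCs at 636 ± 154 CPM (mean ± SD, n = 8 libraries), with macrophages at 310 ± 48.6, Icam1+ APCs at 239 ± 82.2 and Dpp4+ APCs at 125 ± 33.6 CPM. The ranges of macrophages and Icam1+ APCs overlapped, and their order was not the same in both groups, with 338 ± 25.4 and 190 ± 35.3 CPM in Ad-Lib and 282 ± 52.9 and 289 ± 89.2 CPM in TAN libraries (n = 4). Mural cells (58.8 ± 11.4 CPM) and blood endothelial cells (29.4 ± 4.98 CPM) held less Igf1, and B cells gave 6.18 ± 4.40 CPM. F3+ APCs gave 37.8% of a library's Igf1 UMIs in Ad-Lib and 27.0% in TAN on average (7.65% and 4.02% of the cells), macrophages 27.9% and 22.7% (16.3% and 9.83% of the cells) and Icam1+ APCs 17.7% and 24.2% (11.6% and 6.54%). Progenitors and macrophages were thus the main holders of Igf1 RNA in the fraction. Igf2 was found in the vessel wall, at 32.0 ± 12.2 CPM in mural and 16.6 ± 9.96 CPM in endothelial cells, whose ranges overlapped. Its mean was 1.74 CPM or less in the APC subsets, macrophages and T cells.

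Igf1r was highest in endothelial cells among these classes, at 144 ± 17.7 CPM, and those cells gave 34.0% of a library's Igf1r UMIs. Mural cells followed with 92.1 ± 16.7 CPM and Dpp4+ APCs with 75.0 ± 6.63 CPM. Macrophages (53.8 ± 12.9 CPM), F3+ APCs (52.8 ± 10.6) and Icam1+ APCs (49.5 ± 14.7) had overlapping ranges, and T cells stood at 16.0 ± 7.18 CPM over 4.47 ± 3.73 CPM in B cells.

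Igfbp4, Igfbp5 and Igfbp6 were mainly progenitor genes. Over both groups Dpp4+ APCs, 9.30% of the cells of a library, gave 58.0% of its Igfbp5, 60.1% of its Igfbp6 and 47.5% of its Igfbp4 UMIs. Igfbp5, whose product binds matrix as well as IGFs, was at 3391 ± 429 CPM in Dpp4+, 1084 ± 477 in Icam1+ and 1011 ± 322 in F3+ APCs, 656 ± 144 in mural cells and 8.57 ± 2.69 CPM in B cells. Igfbp6, whose product prefers IGF-2, was at 3423 ± 134 CPM in Dpp4+, 1176 ± 155 in F3+ and 920.0 ± 150.1 in Icam1+ APCs. Both genes thus had their highest level in Dpp4+ APCs, and their ranges in F3+ and Icam1+ APCs overlapped. Within a library, Igfbp6 was higher in F3+ than in Icam1+ APCs in 8 of 8 libraries, by 1.13 to 1.499 times. Igfbp4, which encodes a substrate of PAPP-A, was at 1524 ± 128 CPM in Dpp4+ APCs, 619 ± 97.8 in F3+ APCs, 465 ± 56.3 in macrophages, 343 ± 72.5 in mural cells, 281 ± 51.6 in Icam1+ APCs and 146 ± 51.8 CPM in T cells, over 6.92 ± 5.35 CPM in B cells. Igfbp3, the gene of the main IGF carrier of blood, was at 129 ± 49.4 CPM in F3+ APCs, 109.5 ± 36.3 in Dpp4+ APCs and 82.8 ± 22 in endothelial cells, which overlapped in range, while Icam1+ APCs stood at 8.65 ± 6.56 CPM. Igfbp7, whose product binds IGFs weakly and sits in vessel basement membrane, was highest in mural cells (2549 ± 251 CPM), followed by endothelial cells (1741 ± 248), Icam1+ APCs (1588 ± 145) and F3+ APCs (1269 ± 152), and was at 125 ± 23 CPM in Dpp4+ APCs. Over both groups, whose shares of APCs differed, endothelial cells gave 33.6%, Icam1+ APCs 29.6%, mural cells 13.6% and F3+ APCs 13.4% of its UMIs. Vessel cells and progenitors thus both held it. Igfbp2 gave 15 UMIs in all cells kept, 8 of them in Dpp4+ APCs, and passed the filter on low counts in no class.

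**Figure D1:**
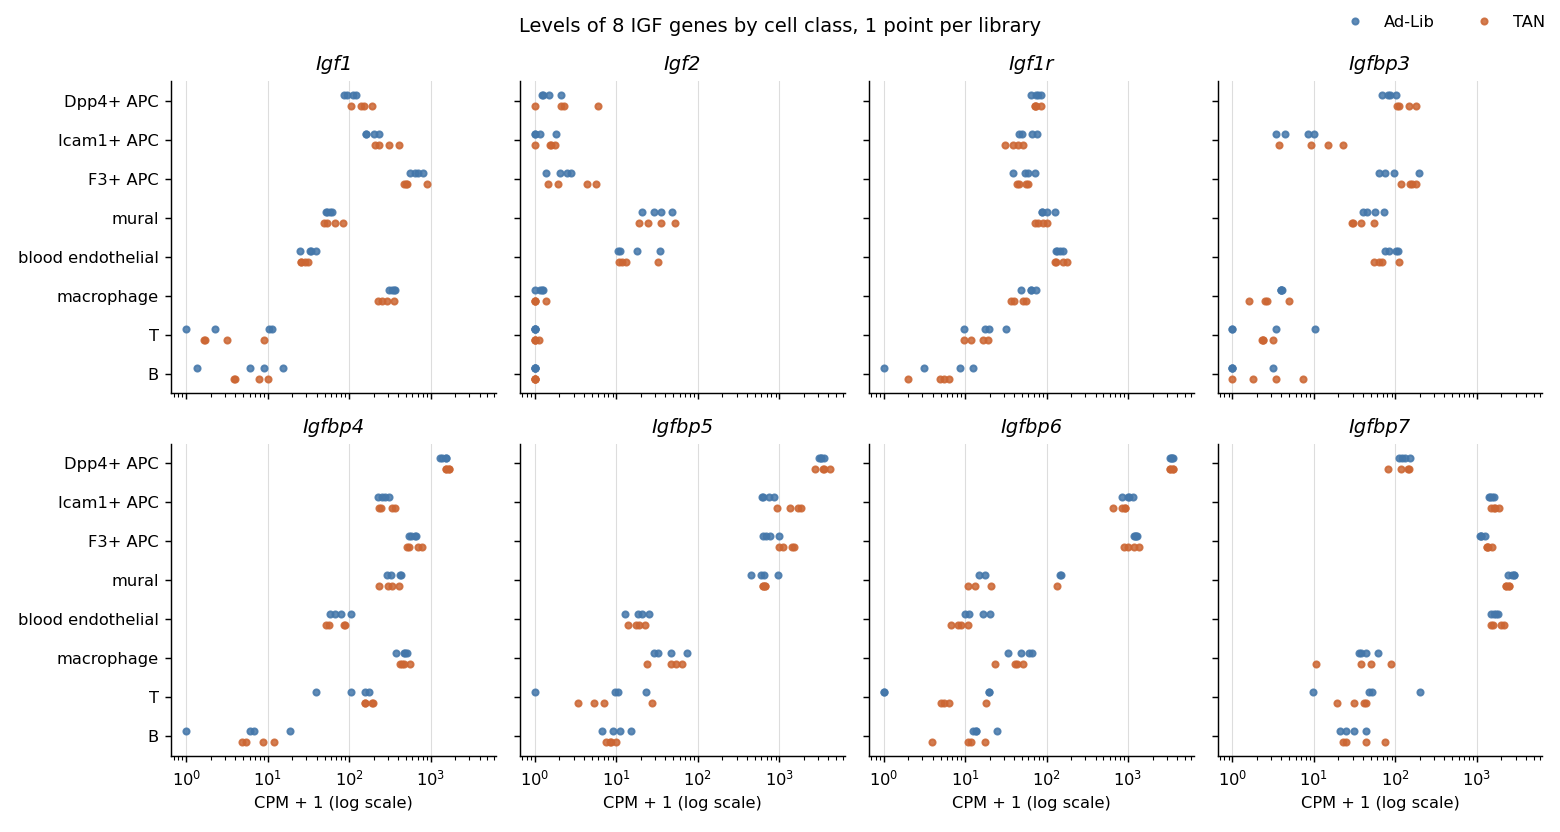
Level of 8 members in 8 cell classes, as CPM + 1 on a log axis, with 1 point for each library (blue, Ad-Lib; orange, TAN). Igf1 is highest in F3+ APCs, Igf2 is found in mural and endothelial cells, and Igfbp4, Igfbp5 and Igfbp6 are highest in Dpp4+ APCs.

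Within the vessel wall the members also differed by cluster. Igf2 was at 109 ± 58.9 CPM in endothelial cluster 10, led by Gja5 and Bmx, and at 1.58 ± 0.963 CPM in the largest endothelial cluster, led by Car4 and Aqp1 (n = 8 libraries each). The same cluster 10 held more Igfbp3 (269 ± 86.0 against 46.1 ± 12.1 CPM) and more Igfbp4 (264 ± 64.9 against 38.6 ± 9.39 CPM). Igfbp7 was highest in endothelial cluster 23, led by Selp and Plvap, at 6452 ± 984 CPM against 1321 ± 154 CPM in the largest cluster. The vessel wall thus held different members in different endothelial clusters, and Igf1r varied less, from 99.9 ± 22.9 to 155 ± 24.7 CPM. Of the mural clusters, cluster 12 (Kcnj8, Ano1) had more Igfbp5, 873 ± 226 against 391 ± 112 CPM, and cluster 22 (Lmod1, Rasl11a) more Igf2, 55.4 ± 23.3 against 12.3 ± 5.59 CPM. The members were left out of the genes used for clustering.

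**Figure D2:**
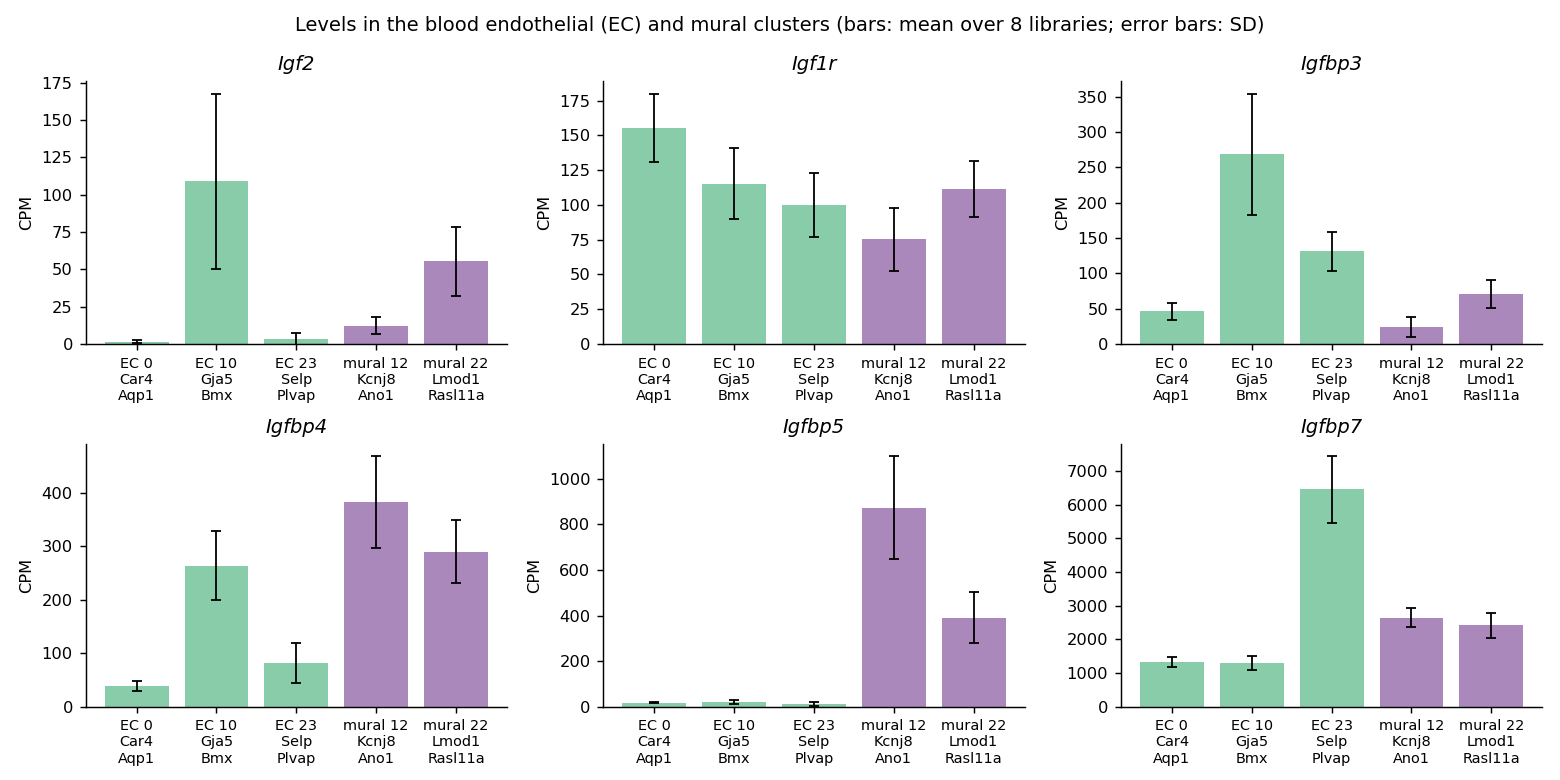
Level in CPM of 6 members in 3 blood endothelial (EC, green) and 2 mural (purple) clusters, with bars for the mean over 8 libraries and error bars for the SD, and each cluster named by its number and 2 of its leading genes. Igf2 stands at 109 CPM in EC cluster 10 and Igfbp7 at 6452 CPM in EC cluster 23.

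Macrophages and T cells were also mixed. Igf1 was at 341 ± 63.2 CPM in macrophage cluster 6 (Ccl12, Pf4), at 457 ± 84.0 in cluster 8 (Lyve1, Timd4), at 308 ± 41.3 in cluster 14 and at 39.9 ± 14.9 CPM in cluster 20 (Ear2, Treml4). Igfbp4 was at 469 ± 63.7, 717 ± 127, 582 ± 143 and 41.9 ± 19.9 CPM in these clusters, so both genes were highest in cluster 8 and lowest in cluster 20. In T cells, Igfbp4 was at 277 ± 56.2 CPM in the cluster led by Lef1 and Cd4 (n = 5 libraries) and at 108 ± 39.5 CPM in the cluster led by Cd8b1 and Cd8a (n = 7).

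The comparison of TAN with Ad-Lib asks how the cells of the fat differed between the feeding groups. The median depth was 5060 to 6560.5 UMIs per cell in Ad-Lib and 3925.5 to 5189 in TAN libraries, and its part was not tested. By the study's methods TAN mice also ate slightly less, which cannot be told apart from the timing of meals. The comparison was made in each class on UMIs summed per library, by edgeR's quasi-likelihood test over all genes that passed the filter on low counts. Calls needed both an adjusted p under 0.05 and a level that changed 1.5-fold or more. In Dpp4+ APCs 1 of 7 members tested was called, against 0.694% of all 10523 genes tested. In Icam1+ APCs 1 of 7 was called, against 1.9% of 10756 genes. None of the members was called in the other classes: 0 of 7 in F3+ APCs, where 0.652% of all genes were called and 2 members had an unadjusted p under 0.05 by edgeR, 0 of 8 in endothelial cells (2.23% of genes, 1 member at an unadjusted p under 0.05), 0 of 8 in mural cells (0.377%, 1 member), 0 of 7 in macrophages (0.229%, 2 members), and 0 of 4 in T cells (0% of genes, 1 member). Of all genes, 1101 of 9973 in F3+ APCs, 1947 of 10830 in endothelial, 860 of 9018 in mural and 1471 of 10459 in macrophage cells had such an unadjusted p. DESeq2 called 1 member in F3+ APCs, where it called 0.334% of all genes, and 0 members in the other 4 classes. In T cells, where edgeR called 0 of 7468 genes, 360 genes had an unadjusted p under 0.05 and DESeq2 called 8 (0.0481%). The median log2 change over the tested members was 0.08 in Dpp4+, 0.11 in Icam1+ and 0.03 in F3+ APCs, and -0.11, -0.21, -0.26 and -0.48 in endothelial, mural, macrophage and T cells, while the median over all genes lay between -0.0040 and 0.025 in these classes. The T cell median rests on 4 members. Some members tested in endothelial, macrophage and T cells lay near the level of B cells, so these medians are not read as a shift of the set.

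**Figure D3:**
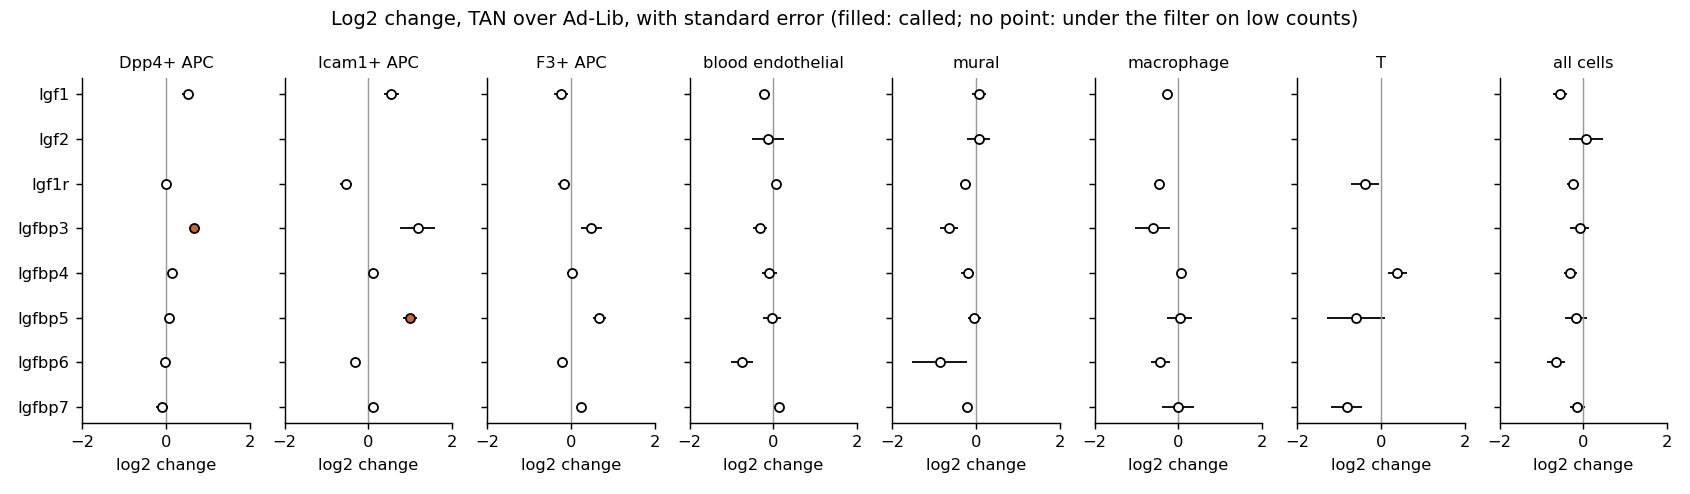
Log2 change from Ad-Lib to TAN of 8 members in each class and in all cells summed, with its standard error, n = 4 libraries each, and filled points for called changes. The 2 filled points are Igfbp3 in Dpp4+ APCs (0.68) and Igfbp5 in Icam1+ APCs (0.99), and a missing point means that the gene did not pass the filter on low counts.

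Igfbp5 rose in Icam1+ APCs. Its level in the 4 Ad-Lib libraries (replicates 1, 3, 5 and 7) was 739, 619, 634 and 865 CPM, and in the TAN libraries (replicates 2, 4, 6 and 8) 1831, 1349, 1686 and 945 CPM. Every TAN library lay above every Ad-Lib library, and TAN replicate 8 was closest to the Ad-Lib range. The log2 change was 0.99 ± 0.17 (SE), with an adjusted p of 0.00287 by edgeR, and it was called under all 16 alternative settings, where it ran from 0.83 to 1.16. More cells also carried Igfbp5: with each cell thinned to 2000 UMIs, 49.9% ± 5.52 of Icam1+ APCs in Ad-Lib and 71.7% ± 11.1 in TAN libraries had at least 1 UMI (SD, n = 4), against 2.05% ± 0.354 and 1.52% ± 0.429 of B cells. Without thinning these shares were 73.0% and 87.7% in Icam1+ APCs, whose median depth was 10850 and 10508 UMIs, and 4.59% and 2.98% in B cells, whose median depth was 5012 and 3504 UMIs, and the thinned shares leave out 1 and 1 Icam1+ APCs and 22 and 91 B cells under 2000 UMIs. Markers of the other classes that hold Igfbp5 were summed in the Icam1+ cells. Those of Dpp4+ APCs, all 8 of them found, summed to 173 to 228 CPM in Ad-Lib and 183 to 218 CPM in TAN libraries, and those of F3+ APCs to 1655 to 2026 and 1504 to 2531 CPM. The latter list sums to 1538 to 2840 CPM in F3+ APCs themselves and so cannot show F3+ cells among Icam1+ cells. Mural markers, with 10 of 10 found, summed to 74.8 to 109 CPM in Ad-Lib and 103 to 144 CPM in TAN libraries, higher in TAN with overlapping ranges, and their part in the Igfbp5 values was not tested.

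In F3+ APCs Igfbp5 was 764, 693, 637 and 982 CPM in the Ad-Lib and 1505, 1422, 987 and 1101 CPM in the TAN libraries, in the order given above. The groups did not overlap, but Ad-Lib replicate 7 and TAN replicate 6 nearly met. The log2 change of 0.68 ± 0.16 was not called (adjusted p = 0.0581, edgeR). It was called in 5 of 16 alternatives, among them DESeq2 (adjusted p = 0.00481), the fit without Ad-Lib replicate 7 (0.80, adjusted p = 0.0214 by edgeR) and the fit without TAN replicate 6 (0.79, adjusted p = 0.0191 by edgeR), and was 0.06 when genes were centred within libraries before clustering. In Dpp4+ APCs, where Igfbp5 was high to begin with, the Ad-Lib libraries held 3287, 3288, 3519 and 3074 CPM and the TAN libraries 3574, 4220, 2735 and 3433 CPM. TAN libraries lay on both sides of the Ad-Lib range there, and the log2 change was 0.08 ± 0.12 (adjusted p = 0.877, edgeR).

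The change of Igfbp5 differed between subsets. The difference between subsets in the TAN change was tested by an interaction term with the library as a block, called at an adjusted p under 0.05. It was 0.88 ± 0.18 larger in Icam1+ than in Dpp4+ APCs (log2, adjusted p = 0.00955, edgeR), where 1.67% of all genes were called. That call was lost without Ad-Lib replicate 5 (0.78, adjusted p = 0.0540 by edgeR). Between F3+ and Dpp4+ APCs (0.458% of genes called) the difference was 0.59 ± 0.12 (adjusted p = 0.0264, edgeR), called in 8 of 16 alternatives. It was lost when Ad-Lib replicate 1, 3 or 5 or TAN replicate 2 or 4 was left out (0.47 to 0.63, adjusted p 0.0561 to 0.176 by edgeR), and was -0.088 when genes were centred within libraries. Within a library, the Igfbp5 level of Icam1+ APCs was 0.225, 0.188, 0.180 and 0.281 of that of Dpp4+ APCs in the Ad-Lib and 0.512, 0.320, 0.617 and 0.275 in the TAN libraries. The ratio of TAN replicate 8 lay within the Ad-Lib range, and the other TAN libraries lay above it.

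Igfbp3 rose in Dpp4+ APCs. The Ad-Lib libraries held 66.9, 86.3, 101 and 81.3 CPM and the TAN libraries 105, 112, 145 and 178 CPM. The groups did not overlap, though the margin between Ad-Lib replicate 5 and TAN replicate 2 was small. The log2 change was 0.68 ± 0.13 (adjusted p = 0.0209, edgeR) and was called in 11 of 16 alternatives. The call was lost when Ad-Lib replicate 1 (adjusted p = 0.0520, edgeR), Ad-Lib replicate 7 (0.0662) or TAN replicate 8 (0.0738, log2 change 0.53) was left out. It was also lost under marker gates and with genes centred within libraries before clustering. With cells thinned to 2000 UMIs, 7.67% ± 0.763 of Dpp4+ APCs in Ad-Lib and 12.8% ± 1.92 in TAN libraries carried an Igfbp3 UMI, against 0.0851% ± 0.17 and 0.341% ± 0.432 of B cells. Unthinned shares were 15.7% and 24.6%, against 0.143% and 0.650% in B cells, at median depths of 10219 and 9354 UMIs in Dpp4+ APCs. Markers of F3+ APCs, which also hold Igfbp3, summed in the Dpp4+ cells to 118 to 192 CPM in Ad-Lib and 53.5 to 141 CPM in TAN libraries. Those of blood endothelial cells summed to 9.42 to 20.7 and 8.45 to 19.1 CPM, with 8 of 8 found. Markers of Dpp4+ APCs themselves summed to 5821 to 6304 and 6215 to 7168 CPM, lymphatic endothelial markers, 2 of 8 at 0, to 291 to 344 and 339 to 415 CPM, and Schwann cell markers, 1 of 8 at 0, to 42.6 to 60.8 and 26.7 to 38.1 CPM, the last without overlap. Their part in the Igfbp3 values was not tested.

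In F3+ APCs Igfbp3 stood at 74.0, 61.5, 95.0 and 194 CPM in Ad-Lib and 151, 159, 117 and 180.2 CPM in TAN libraries. Ad-Lib replicate 7 was the highest of all 8 and the other Ad-Lib libraries lay under all TAN libraries. The log2 change was 0.49 ± 0.25 (adjusted p = 0.502, edgeR), and without that library it was 0.95 ± 0.15 (adjusted p = 0.00621, edgeR). In Icam1+ APCs Igfbp3 was low, 2.42 to 9.07 CPM in Ad-Lib and 2.78 to 21.8 CPM in TAN libraries, with a log2 change of 1.18 ± 0.42 (adjusted p = 0.155, edgeR). It was called without the filter on low counts (adjusted p = 5.5e-06) and with genes centred within libraries (1.85, adjusted p = 0.0129, both by edgeR), and without TAN replicate 2 it was 0.63. In mural cells the value pointed the other way, 39.0 to 71.6 against 28.5 to 53.3 CPM, with a log2 change of -0.65 ± 0.21 that was called only without that filter (adjusted p = 0.0163 against 0.236, edgeR). In endothelial cells Igfbp3 was at 73.5 to 108 against 54.3 to 111 CPM (-0.32 ± 0.17, adjusted p = 0.360, edgeR). Leaving out TAN replicate 8 gave -0.55 there with an adjusted p of 0.0298 by edgeR, which is under 1.5-fold. The difference between subsets in the change of Igfbp3 was not called for any pair (adjusted p 0.638 to 0.970, edgeR).

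**Figure D4:**
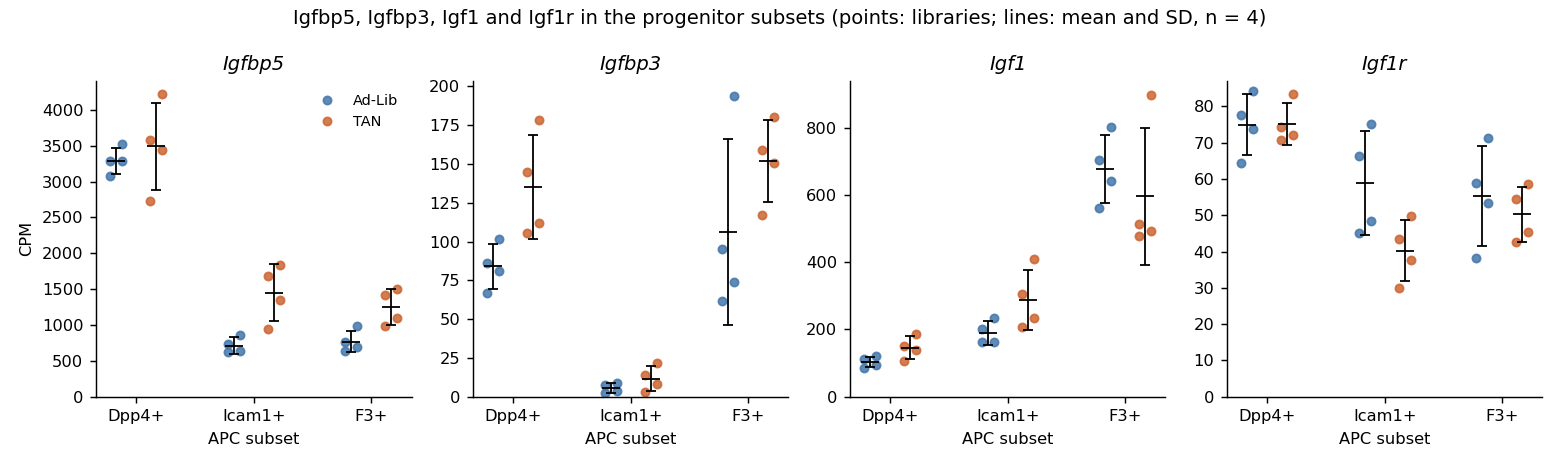
Level in CPM of Igfbp5, Igfbp3, Igf1 and Igf1r in the APC subsets, with 1 point for each library (blue, Ad-Lib; orange, TAN) and lines for the mean and SD of each group, n = 4. All 4 TAN libraries lie above all Ad-Lib libraries for Igfbp5 in Icam1+ and F3+ APCs and for Igfbp3 in Dpp4+ APCs.

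Igf1 differed among the subsets in its change, without a call in any of them. In Dpp4+ APCs the Ad-Lib libraries held 86.5, 93.5, 111 and 121 CPM and the TAN libraries 188, 106, 152 and 138 CPM. In Icam1+ APCs these values were 200.3, 235, 162 and 162 CPM against 304, 234, 408 and 209 CPM. TAN means were higher in both subsets with overlapping ranges, and the log2 changes of 0.52 ± 0.13 and 0.55 ± 0.18 were not called (adjusted p = 0.0824 and 0.113, edgeR), being also under 1.5-fold. DESeq2 gave adjusted p of 0.0558 and 0.414, and edgeR without the filter on low counts 5.3e-05 and 1.2e-05, with changes of 0.52 and 0.54 that stayed under that fold. Without TAN replicate 4 the former was called (0.64, adjusted p = 0.0382), and without TAN replicate 8 the latter (0.69, adjusted p = 0.0345, both by edgeR). In F3+ APCs, the subset with the most Igf1, the Ad-Lib libraries held 703, 641, 561 and 802 CPM and the TAN libraries 513, 478, 898 and 492 CPM. There 3 of 4 TAN libraries lay under all Ad-Lib libraries and TAN replicate 6 above them, and the log2 change was -0.24 ± 0.17 (adjusted p = 0.680, edgeR). Leaving out 1 library gave -0.47 to -0.15 (adjusted p 0.0950 to 0.866, edgeR).

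The change of Igf1 in F3+ APCs was lower than in Icam1+ APCs by 0.81 ± 0.12 on the log2 scale, a difference of -0.81 with an adjusted p of 0.000558 by edgeR, where 0.359% of all genes were called. It remained called under 14 of 16 alternatives, all 8 that leave out a library included, and was lost under marker gates (-0.55) and with genes centred within libraries (-0.81, adjusted p 0.147 by edgeR). Within a library, the Igf1 level of F3+ APCs was 3.51, 2.72, 3.46 and 4.96 times that of Icam1+ APCs in the Ad-Lib libraries and 1.69, 2.04, 2.20 and 2.36 times in the TAN libraries. All 4 TAN ratios were lower than all Ad-Lib ratios, TAN replicate 6 included. Against Dpp4+ APCs the difference was -0.79 ± 0.16 (adjusted p = 0.0223, edgeR), called in 9 of 16 alternatives and lost without Ad-Lib replicate 1 or 3 or TAN replicate 2 or 8 (-0.77 to -0.60). The ratio of F3+ to Dpp4+ APCs was 5.05 to 8.12 in Ad-Lib and 2.73 to 5.90 in TAN libraries, which overlapped. Between Icam1+ and Dpp4+ APCs the change of Igf1 differed by 0.0029 ± 0.18, which was not called.

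**Figure D5:**
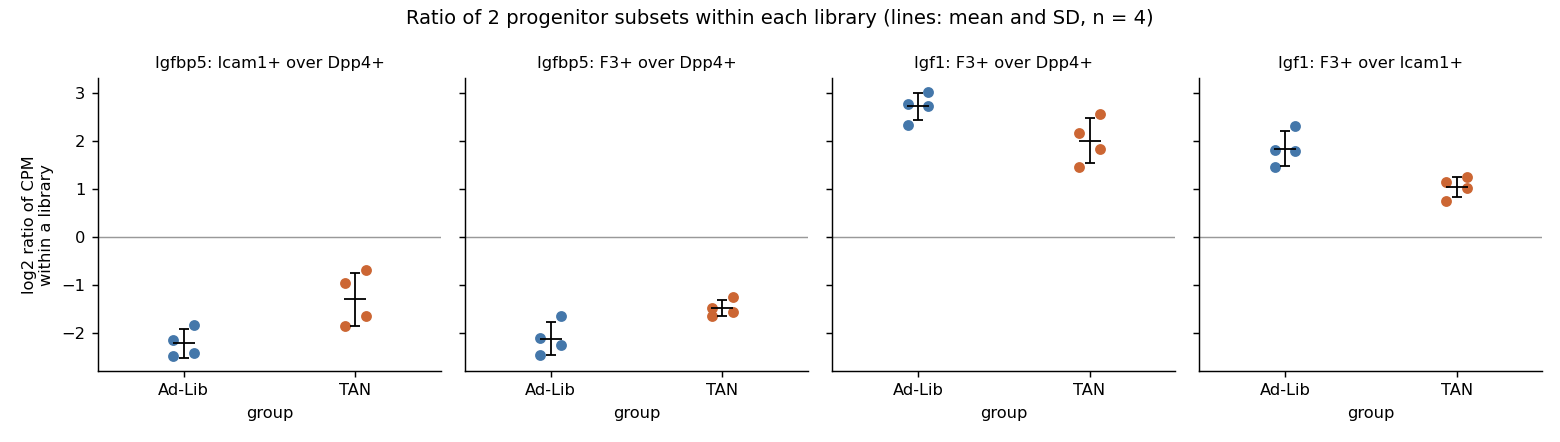
Log2 ratio of the CPM of 2 APC subsets within each library for Igfbp5 and Igf1, with 1 point for each library (blue, Ad-Lib; orange, TAN) and lines for the mean and SD, n = 4. The ratio of F3+ to Icam1+ APCs for Igf1, 2.72 to 4.96 before the log in Ad-Lib and 1.69 to 2.36 in TAN libraries, shows no overlap between the groups.

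In macrophages Igf1 was 335, 304, 350.3 and 363 CPM in Ad-Lib and 228, 256, 350.3 and 295 CPM in TAN libraries, a log2 change of -0.26 ± 0.09 that was not called (adjusted p = 0.185, edgeR). The TAN value of replicate 6 lay within the Ad-Lib range. In mural and endothelial cells the log2 changes of Igf1 were 0.07 ± 0.16 and -0.21 ± 0.13. Igf2 changed by -0.13 ± 0.38 in endothelial and 0.06 ± 0.27 in mural cells, with adjusted p of 0.903 and 0.984 by edgeR, and passed the filter on low counts in no other cell class. Leaving out 1 library gave -0.58 to 0.34 and -0.37 to 0.27. TAN replicate 8 held 31.1 CPM of Igf2 in endothelial cells, against 9.68 to 11.98 CPM in the other TAN libraries.

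Igf1r, the receptor gene, stood lower in TAN in Icam1+ APCs without reaching a call. The Ad-Lib libraries held 48.5, 45.1, 75.1 and 66.2 CPM and the TAN libraries 43.6, 37.8, 29.99 and 49.8 CPM. The groups overlapped through TAN replicate 8, and the log2 change was -0.54 ± 0.15 (adjusted p = 0.0506, edgeR), which is also under 1.5-fold. DESeq2 gave -0.55 with an adjusted p of 0.0387, under that fold too. It was called when Ad-Lib replicate 1 (-0.60, adjusted p = 0.0468), Ad-Lib replicate 3 (-0.63, 0.0306) or TAN replicate 8 (-0.64, 0.0404, all by edgeR) was left out. In macrophages the values were 63.9, 47.9, 73.3 and 63.9 CPM against 35.9, 38.9, 50.8 and 55.6 CPM, a log2 change of -0.46 ± 0.12 (adjusted p = 0.108, edgeR). In Dpp4+ APCs the ranges were 64.3 to 84.2 and 70.7 to 83.5 CPM (-0.0044 ± 0.086), and in endothelial cells, where the receptor gene was highest, 128 to 158 and 128 to 176 CPM (0.07 ± 0.09, adjusted p = 0.755 by edgeR). The difference between Icam1+ and Dpp4+ APCs in the change of Igf1r, -0.52 ± 0.14, was not called (adjusted p = 0.0588, edgeR). It was called in 2 of 16 alternatives, without Ad-Lib replicate 1 (-0.64, adjusted p = 0.0219) and without the filter on low counts (adjusted p = 0.00235, both by edgeR).

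Among Igfbp4, Igfbp6 and Igfbp7 no change was called by edgeR in any cell class with the filter and clusters used throughout. Igfbp7 in F3+ APCs was 1092, 1122, 1117 and 1256 CPM in Ad-Lib and 1526, 1346, 1376 and 1321 CPM in TAN libraries. The groups did not overlap, but the log2 change was only 0.25 ± 0.10 (adjusted p = 0.363, edgeR). Igfbp6 changed by -0.02 ± 0.07 in Dpp4+ APCs, its main source, by -0.32 ± 0.10 in Icam1+ APCs (adjusted p = 0.115, edgeR) and by -0.20 ± 0.11 in F3+ APCs. In endothelial cells Igfbp6 was at 5.75 to 19.4 CPM, within the range of B cells (2.94 to 23.96 CPM, mean 12.6), so these values are not read as expression or as a change. General APC markers summed in the endothelial cells to 85.2 to 126 CPM in Ad-Lib and 61.99 to 84.3 CPM in TAN libraries. Igfbp6 in mural cells was uneven within the groups, with 148 and 144 CPM in Ad-Lib replicates 1 and 5 and 132 CPM in TAN replicate 8, against 9.87 to 19.7 CPM in the other 5 libraries, which is within the range of B cells. The log2 change was -0.86 ± 0.66 (adjusted p = 0.751, edgeR). Leaving out 1 library gave -2.41 to -0.20 (adjusted p 0.217 to 0.970, edgeR), and it was called in 1 of 15 alternatives, without the filter on low counts. Markers of Dpp4+ APCs summed to 107 to 262 CPM in Ad-Lib and 142 to 408 CPM in TAN mural cells, and their part in these values was not tested. Igfbp4 changed by 0.15 ± 0.07 in Dpp4+, 0.11 ± 0.12 in Icam1+ and 0.03 ± 0.12 in F3+ APCs and by 0.06 ± 0.09 in macrophages, and by 0.39 ± 0.22 in T cells, where its range was 37.8 to 173 CPM in Ad-Lib and 157 to 194 CPM in TAN libraries.

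When all cells of a library were summed, the log2 changes of Igf1 and Igfbp5 were negative, unlike those in Dpp4+ and Icam1+ APCs. Those of Igfbp6 and Igf1r were negative in the sum as in Icam1+ APCs. None of 8 members tested was called, with 0.0268% of all genes called, while 2 members and 3702 of all 14911 genes had an unadjusted p under 0.05 by edgeR. DESeq2 called 1 member and 3.55% of all genes. Igfbp6 was 1179.6, 825, 964 and 1029.7 CPM in Ad-Lib and 727, 573, 383 and 797 CPM in TAN libraries. The groups did not overlap, and the log2 change of -0.65 ± 0.21 was not called by edgeR (adjusted p = 0.149) but was by DESeq2 (adjusted p = 0.0458). Igf1 changed by -0.56 ± 0.17 (adjusted p = 0.142, edgeR) and Igfbp5 by -0.18 ± 0.27 (adjusted p = 0.660, edgeR), although the Igfbp5 values of Icam1+ APCs rose. Dpp4+ APCs were 11.5% of the cells of an Ad-Lib library and 7.10% of a TAN library on average, Icam1+ APCs 11.6% and 6.54%, and F3+ APCs 7.65% and 4.02%. In such sums, fewer cells of a type and less RNA per cell cannot be told apart.

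Of the 44 other genes of the pathway edgeR called 1, in mural cells. Of those that passed the filter, 0 of 31 were called in Dpp4+, 0 of 34 in Icam1+ and 0 of 35 in F3+ APCs, with 7, 6 and 4 genes at an unadjusted p under 0.05 by edgeR, beside 1200 of 10523, 1748 of 10756 and 1101 of 9973 of all genes. In Dpp4+ APCs those 7 included Igf2bp2 and Igf2bp3, which encode binding proteins of Igf2 mRNA, with log2 changes of 0.64 ± 0.25 and 0.64 ± 0.30 (adjusted p = 0.310 and 0.423, edgeR), and Socs2, which encodes an inhibitor of growth hormone signalling, with -0.92 ± 0.25 (adjusted p = 0.101, edgeR). Of these 3, only Socs2 was called in any alternative (2 of 16), and Igf2 itself stood at 1.15 CPM in Dpp4+ APCs. Past 1.5-fold at such an unadjusted p were also Cish in F3+ APCs, Stc1 in endothelial cells, Irs2 in T cells and Grb14 in all cells summed. None of them was called, and in this order 1 of 14, 2 of 17, 0 of 16 and 0 of 13 alternatives called them. In endothelial cells 0 of 32, in macrophages 0 of 29 and in T cells 0 of 22 were called. In all cells summed 0 of 41 were called and 10 had an unadjusted p under 0.05 by edgeR. Among those of the 10 that were also past 1.5-fold, DESeq2 called Irs1, which encodes an adaptor of the insulin and IGF-1 receptors (-0.92 ± 0.31, adjusted p = 0.0447), and Pappa, which encodes a protease of IGF binding proteins (-0.94 ± 0.32, adjusted p = 0.0450). The gene that edgeR called was Irs2 in mural cells, the gene of an adaptor that links the insulin and IGF-1 receptors to PI3-kinase, which fell by 0.84 ± 0.16 on the log2 scale (adjusted p = 0.0272, edgeR) as 1 of 30 tested, where 0.377% of all genes were called. This call held in 12 of 16 alternatives and was lost without Ad-Lib replicate 5 (-0.75, adjusted p = 0.0636) or 7 (-0.85, 0.0688) or TAN replicate 2 (-0.80, 0.113) or 8 (-0.87, 0.0574, all by edgeR). The 20 genes of signalling below the receptor had a median log2 change of -0.10 in Icam1+ APCs over the 19 tested, 3 of which were above 0, -0.14 in F3+ APCs over 19, 7 of which were above 0, and 0.05 in Dpp4+ APCs over 18, 11 of which were above 0. The medians were -0.05, -0.04, -0.03 and -0.10 in endothelial, mural, macrophage and T cells. The median over all genes was -0.0040 to 0.025 in these classes. The share of all genes above 0 is not given, and the set was not tested.

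For each member, the 3 genes with the most similar pattern over 115 sums of a class in a library were found by Pearson's correlation of log2(CPM + 1). Igfbp6 was most like Mfap5 (r = 0.929), Clec3b and Serpinf1, Igfbp7 most like Col4a1 (0.915), Timp3 and Dlc1, and Igfbp5 most like C1s1 (0.909), Ddr2 and Sdc2. Igfbp3 was most like Mustn1 (0.865), Igf2 like Gper1 (0.851), Igf1 like Cfb (0.838), Igfbp4 like Nupr1 (0.818) and Igf1r like Reep3 (0.753). These are descriptions, since sums of 1 library share its depth and Mfap5, Serpinf1 and Col4a1 were among the markers that named the clusters.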

How the data were processed

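The authors deposited raw counts of UMIs per gene and barcode, 1 table per library, made with Cell Ranger on mm10 (GRCm38) from exonic reads. The submitters' notes name version 3.0.2 and the file headers 6.0.1. The members and gene lists were chosen with earlier results of these data known. Barcodes with 700 to 30000 UMIs, 200 to 8000 genes and at most 10% mitochondrial UMIs were kept, the limits in the study's methods, and doublets were not removed. Counts were scaled to 10000 per cell, logged, and clustered without the 53 pathway genes (2000 variable genes, 30 principal components, 20 neighbours, Leiden resolution 1; igraph 0.11.9, leidenalg 0.10.2). Of 38 clusters, 8 with 6604 cells (18.2%) were left unnamed. They include 2 shallow clusters of 792 and 567 cells whose leading genes are like those of Dpp4+ and F3+ APCs, and which are outside the subsets. Limits for naming were set after the clusters were seen. A name needed 3 markers at 2-fold in 10% of cells, with the next score at most 0.5 of the best. Any 2 libraries shared 5 to 16 barcodes.

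UMIs were summed per library and class with at least 10 cells, and tested with edgeR 4.0.16 (R 4.3.3, TMM, filterByExpr, glmQLFTest, Benjamini-Hochberg over all genes). SE is the log2 change over the square root of F. Scripts were tested on simulated data. The study's own test over cells was not used, since cells of a library are not replicates. The text names all 9 members, and the other pathway genes past 1.5-fold at an unadjusted p under 0.05 by edgeR. The plan had been to name only pathway genes called in a class. Of the 3 genes most like each member it names all or the first, and cluster examples were chosen after their values were seen. Alternatives were DESeq2 1.42.0, RLE scaling, no filter on low counts, Leiden resolution 2, per-cell marker gates, a 20% mitochondrial limit, removal of 1351 doublet-like cells, centring of genes within libraries, leaving out each library, and, chosen after seeing the data, leaving out doubtful clusters and all alternatives for the other pathway genes named. Intervals cover the spread of libraries only.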

Additional observations from a re-analysis of the deposited data

Results flagged for a closer look

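In 4 of 112 groups of 4 libraries, 1 library stood apart from the others by Dixon's ratio at its 95% critical value, and chance alone gives about 1 such group in 20. Igf1 in F3+ APCs was 898 CPM in TAN replicate 6, against 478 to 513 CPM in the other TAN libraries. Igfbp5 in T cells was 26.5 CPM in the same library, against 2.35 to 6.09 CPM. TAN replicate 8 held 31.1 CPM of Igf2 in endothelial cells, against 9.68 to 11.98 CPM, and 132 CPM of Igfbp6 in mural cells, against 9.87 to 19.7 CPM.

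The change from Ad-Lib to TAN differed between APC subsets, by an interaction term in edgeR, for Igfbp5 between Icam1+ and Dpp4+ APCs (0.88 on the log2 scale) and between F3+ and Dpp4+ APCs (0.59). It also differed for Igf1 between F3+ and Dpp4+ APCs (-0.79) and between F3+ and Icam1+ APCs (-0.81). The causes were not tested.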

How the results depend on the processing

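The numbers of members called were 1 in Dpp4+ APCs, 1 in Icam1+ APCs, 0 in the other classes and in all cells, and 4 differences between subsets. Without the filter on low counts they were 2 in Dpp4+, 2 in Icam1+ and 1 in F3+ APCs, 1 in endothelial (Igfbp6, at the B cell background) and 2 in mural cells, and 8 differences. All genes called there were 1.15%, 2.08%, 1.41%, 2.05% and 0.997% of those tested, in the same order of classes. Under marker gates they were 0 in Dpp4+ APCs, 1 in endothelial (Igfbp6 again) and 1 in T cells, and 1 difference. In these classes 0.507%, 2.27% and 2.29% of all genes were called. With genes centred within libraries they were 0 in Dpp4+ and 2 in Icam1+ APCs (0.542% and 1.23% of all genes), and 2 differences. No T cell test was run there because too few libraries had enough cells. DESeq2 called 1 member in F3+ APCs (0.334% of all genes) and 1 in all cells (3.55%), removal of doublets gave 1 in F3+ APCs (0.782%), and Leiden resolution 2 gave 2 differences. Leaving out 1 library gave 0 to 2 in Dpp4+, 1 to 3 in Icam1+ and 0 to 2 in F3+ APCs, and 2 to 4 differences. All genes called were then 0.254% to 1.20%, 1.20% to 2.13% and 0.128% to 1.04% in these subsets. The differences are given without the share of all genes under these alternatives. The cause was not tested.

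Directions turned for Igfbp6 in macrophages under marker gates (0.47), without doublets (0.44) and without 2 small clusters (0.41), and for Igfbp7 in T cells under marker gates (0.56). The difference of Igfbp5 between F3+ and Dpp4+ APCs turned with centred genes (-0.088), that of Igfbp4 between them under marker gates (0.18), and that of Igfbp4 between F3+ and Icam1+ APCs at Leiden resolution 2 (0.18) and under marker gates (0.69). Another 82 sign changes of uncalled values within 1 SE of 0 were not counted. All genes called without the filter were 198 against 73 in Dpp4+, 359 against 204 in Icam1+ and 241 against 65 in F3+ APCs, 368 against 241 in endothelial, 147 against 24 in macrophages, 168 against 34 in mural and 83 against 0 in T cells. More genes were tested without the filter, such as 17191 against 10523 in Dpp4+ APCs. Marker gates gave 0 in F3+ and 97 in Icam1+ APCs, 196 in T and 118 in mural cells, Leiden resolution 2 gave 12 in F3+ APCs and 20 in T cells, centring gave 28 in F3+ APCs, doublet removal gave 20 in mural cells and 46 in macrophages, and in all cells DESeq2 called 808 against 4, and edgeR 296 without Ad-Lib replicate 3. Leaving out 1 library gave 27 to 127 in Dpp4+, 131 to 232 in Icam1+ and 13 to 105 in F3+ APCs, 143 to 254 in endothelial, 13 to 46 in mural and 9 to 50 in macrophage cells, and 0 to 31 in T cells, the 31 without Ad-Lib replicate 3. No paired analysis was possible because the groups share no replicate numbers. By the filter on low counts Igfbp2 was tested in no cell class and Igf2 in endothelial and mural cells only.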

Other observations

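Outside the classes compared, Igf1r was at 168 ± 54.0 CPM in Schwann cells (n = 8 libraries), which also held 1369 ± 240 CPM of Igfbp7. Neutrophils (n = 5 libraries) held 367 ± 164 CPM of Igf1r on 58 UMIs in all. Adipocyte-rich droplets held 371 ± 24.2 CPM of Igf1 and 475 ± 98.4 CPM of Igfbp4. Igf1r was at 5.60 ± 6.10 CPM in them, and natural killer and dendritic cells held at most 12.8 ± 7.75 CPM of Igf1r. These levels are descriptions without a test.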
